A study of Mus musculus with 123 samples.

Results

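Dppa2, Dppa3, Dppa4, Dppa5a and Utf1 were followed across single mouse embryos that lacked Oct4 (gene symbol Pou5f1) or Sox2, to ask how these markers of early pluripotency depend on either transcription factor. They were the 5 rows of the UMI table, of 29,022 genes, that carried these symbols. The table held 123 embryos in 16 groups, with 1 library per embryo. Of these, 68 belonged to the Oct4 line and 55 to the Sox2 line. A UMI is a random tag that marks each captured transcript, so that PCR copies count once. In the Oct4 line, KO embryos came from Pou5f1 flox/flox; Zp3-Cre mothers and a paternal knockout allele marked with mKO2, and in the Sox2 line from Sox2 flox/flox; Zp3-Cre mothers and a paternal knockout allele marked with EGFP. Zp3-Cre is active in the growing oocyte, so KO embryos inherited no intact copy of the targeted gene. Their Ctrl counterparts shared the deleted maternal allele and inherited 1 intact paternal allele, which means that no Ctrl embryo was wild type for the targeted gene. A further set of controls was labelled Ctrl_MWT (called MWT here), a term that the labels do not spell out. The study sets embryos with a maternal knockout beside wild-type ones. Morulae (E2.75) were whole embryos, whereas ICMs had been cultured from E2.5 with the MEK inhibitor PD0325901 at 1 μM and separated from the trophectoderm by immunosurgery, the early ones at E3.75 and the late ones at E4.5. Stage, culture and isolation therefore changed together. Each Ctrl and KO group held 8 embryos. MWT embryos of the Oct4 line numbered 7 at the morula, 5 at the early ICM and 8 at the late ICM stage, and the Sox2 line had 7, all early ICMs. The labels of the Oct4 MWT ICMs disagreed with each other, and the titles were followed: the source names put the early ICMs at E2.75, as morulae and with no inhibitor listed, and the late ICMs at E3.75, with the inhibitor.

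Dppa2 and Dppa4 are SAP-domain proteins that bind chromatin as partners and help to open the 2-cell programme and to keep developmental promoters free of DNA methylation. Dppa3 (Stella) is deposited in the oocyte and shields the early genome from DNA methylation changes, in part by restraining Uhrf1, while Dppa5a is an RNA-binding KH-domain protein of pluripotent cells. Utf1 is a chromatin factor of the pluripotent epiblast, and an OCT-SOX composite element in its downstream enhancer is a textbook example of joint binding by Oct4 and Sox2.

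Total UMIs per embryo ranged from 525,755 to 1,344,035, and levels are given as CPM, the UMIs of a gene scaled to a common library total. Every member was detected in every embryo, with at least 6 UMIs. The labels were checked on the targeted genes. Pou5f1 reached at most 4.73 CPM in any Oct4-KO embryo and was at least 7.47 CPM in every other embryo, and Sox2 reached at most 36.4 CPM in Sox2-KO ICMs against at least 72.6 CPM in Sox2 Ctrl ICMs. In Sox2 morulae the groups overlapped, with 0 to 3.32 CPM of Sox2 in KO and 2.91 to 34.2 CPM in Ctrl embryos, and 7 of 8 KO morulae were below all Ctrl morulae. All 10 epiblast markers examined had UMIs in every group, and so did at least 10 of 11 trophectoderm markers, also in the ICM groups, and at least 6 of 9 primitive endoderm markers.

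The genes lie on 4 chromosomes of mm10. Dppa4 (ENSMUSG00000058550, chr16:48283733-48294237) and Dppa2 (ENSMUSG00000072419, chr16:48303908-48319723) are adjacent on the plus strand, 9.67 kb apart. Dppa3 (ENSMUSG00000046323, chr6:122626410-122630272) is on the plus strand, 77.2 kb upstream of Nanog. Dppa5a (ENSMUSG00000060461, chr9:78367052-78368177) is on the minus strand, and Utf1 (ENSMUSG00000047751, chr7:139943789-139945112) on the plus strand. All are protein-coding, and no other gene of GENCODE vM21 overlaps any of them on either strand. The libraries were enriched for 3′ ends, and the last 500 bases of each annotated transcript were therefore compared with all other transcripts in runs of 50 bases. None of the runs of Dppa2, Dppa4 and Utf1 occurred in another gene. For Dppa3, 10.6% did, in Dppa3-ps among others, and for Dppa5a 46.3% did, in Dppa5b and Dppa5c among others. Dppa5a values are accordingly uncertain to the extent that the authors' counting split or dropped such reads, and they are compared below only between groups.

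Because Utf1 carried the largest KO effects, the stretch directly before its start is shown, from the RefSeq promoter table (GRCm38.p6, chr7:139943606-139943788, plus strand, 183 bases, ending at the base before the annotated gene start). Of the 5 members, 1 was in that table. Capitals mark GC boxes (GGGCGG, or CCGCCC on the other strand).
Utf1 promoter: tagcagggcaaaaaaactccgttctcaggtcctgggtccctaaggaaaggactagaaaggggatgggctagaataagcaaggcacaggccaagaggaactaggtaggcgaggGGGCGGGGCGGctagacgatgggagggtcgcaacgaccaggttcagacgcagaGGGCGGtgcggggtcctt
The 3 GC boxes start 71, 66 and 18 bases before the gene start, of which the pair at 71 and 66 overlaps by 1 base. Among 32,851 promoter windows of the same length, 21.5% held a GC box on either strand. Neither the octamer ATGCAAAT (reverse complement ATTTGCAT), found in 1.17% of windows, nor the SOX core CATTGT on either strand, found in 7.99%, occurs in these 183 bases. The letters say nothing of the downstream enhancer, which was not analysed here.

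Loss of either factor left all 5 genes without a call in morulae, and from the early ICM onwards it was Utf1 that was called in both lines, with Dppa3 joining it in Oct4-KO late ICMs. A gene was called at an adjusted p under 0.05 in edgeR's quasi-likelihood test with a log2 fold change of at least 1 in either direction. In the Oct4 line, 0 of 5 members were called in morulae, where 0.804% of the 14,053 tested genes were called, 1 of 5 in early ICMs, beside 10.9% of all genes, and 2 of 5 in late ICMs, beside 18.1%. In the Sox2 line, 0 of 5 were called in morulae, beside 0.00712% of all genes (a single gene, Sox2 itself), 1 of 5 in early ICMs, beside 3.27%, and 1 of 5 in late ICMs, beside 6.95%. No member was called higher in a KO group. Because each library is a whole embryo or ICM, fewer cells of a type and less RNA per cell cannot be told apart.

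**Figure D1:**
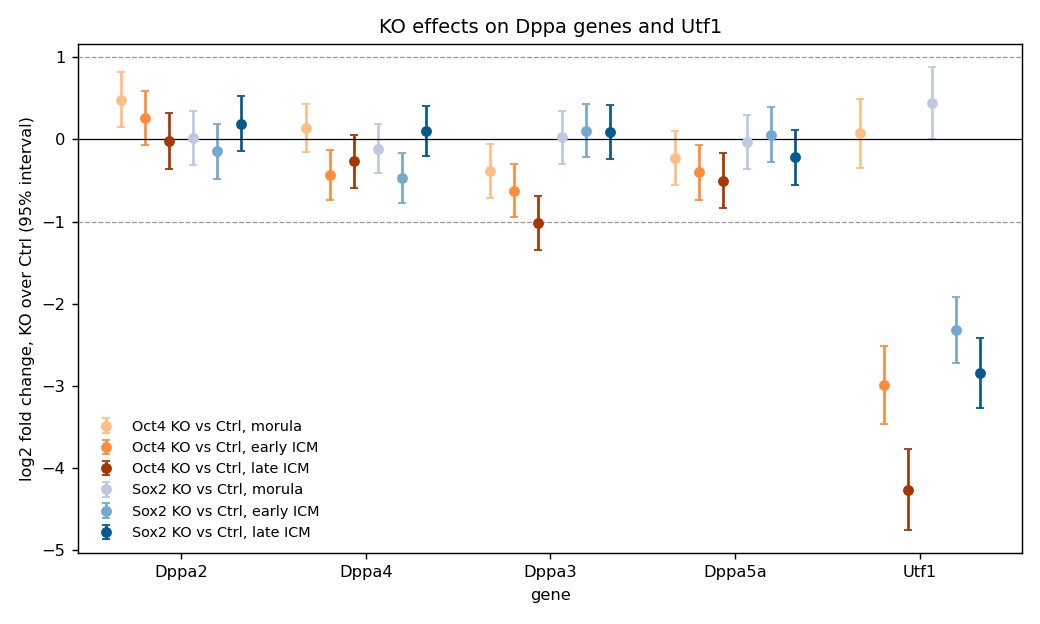
Log2 fold change of KO over Ctrl embryos (y axis) for each gene (x axis) in the 3 stages of both lines. Points are edgeR estimates, bars their 95% intervals and dashed lines the fold-change minimum of 1 in either direction. The 4 ICM estimates of Utf1 lie between -4.27 and -2.32, and the Dppa3 estimate in Oct4-KO late ICMs sits at -1.01.

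In the Ctrl embryos of both lines Utf1 was lowest in morulae and rose to the early ICM. In Oct4 Ctrl embryos its lowest, median and highest values were 46.6, 63.6 and 84.0 CPM in morulae, 98.5, 147 and 195 CPM in early ICMs and 294, 342 and 514 CPM in late ICMs. The 3 stages did not overlap, which held for 16.4% of all genes from morula to early ICM and for 6.42% from early to late ICM. In Sox2 Ctrl embryos the corresponding values were 24.5, 37.7 and 54.3 CPM in morulae, 293, 535 and 719 CPM in early ICMs and 246, 402 and 459 CPM in late ICMs, so that every early ICM was above every morula, at a step where 18.6% of all genes separated fully, while early and late ICMs overlapped. The log2 rise from morula to early ICM was 1.14 ± 0.21 (SE, adjusted p = 2.14e-06) in the Oct4 line and 3.63 ± 0.22 (adjusted p = 1.12e-26) in the Sox2 line. From early to late ICM, Utf1 rose by a further 1.28 ± 0.20 (adjusted p = 1.28e-07) in the Oct4 line, whereas the Sox2 line gave -0.41 ± 0.19 (adjusted p = 0.185). The difference between the lines in these courses was not tested.

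Loss of Oct4 turned the first of these rises into a fall. Utf1 ranged from 38.6 to 99.4 CPM, with a median of 63.4, in Oct4-KO morulae, from 9.57 to 34.2 with a median of 19.2 in early ICMs, and from 7.58 to 26.5 with a median of 18.7 in late ICMs. KO and Ctrl morulae overlapped, with 4 of 8 KO embryos below the Ctrl median, whereas every KO ICM was below every Ctrl ICM of its stage, a full separation seen for 3.92% of all genes in early and 5.59% in late ICMs. The KO effect was 0.07 ± 0.21 (95% interval -0.35 to 0.49) in morulae, -2.99 ± 0.24 (7.93-fold lower, adjusted p = 1.43e-18) in early ICMs and -4.27 ± 0.25 (19.2-fold lower, adjusted p = 1.86e-27) in late ICMs. Within the KO embryos, Utf1 fell by 1.92 ± 0.24 from morula to early ICM (adjusted p = 1.46e-10) and gave 0.00 ± 0.28 from early to late ICM, with an interval of -0.56 to 0.56. Between the ICM stages Utf1 therefore rose in Ctrl embryos and gave an estimate near 0 in KO embryos. The late KO effect was smaller, -3.67, with limma on the authors' rlog values.

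Utf1 was also lower in ICMs after loss of Sox2. In Sox2-KO morulae it ranged from 28.3 to 79.9 CPM with a median of 52.6, in early ICMs from 51.0 to 138 with a median of 111, and in late ICMs from 29.7 to 110 with a median of 38.4. Again each KO ICM lay below all Ctrl ICMs of its stage, as fully separated as 1.23% of all genes in early and 2.3% in late ICMs, while 7 of 8 KO morulae were above the Ctrl median. The KO effect was 0.44 ± 0.22 in morulae, which did not pass the test (adjusted p = 1), -2.32 ± 0.20 (4.99-fold lower, adjusted p = 2.20e-15) in early ICMs and -2.85 ± 0.22 (7.19-fold lower, adjusted p = 3.39e-19) in late ICMs. The KO embryos showed a positive estimate from morula to early ICM, 0.86 ± 0.21 (adjusted p = 3.26e-04), which was below the fold-change minimum. It was followed by an estimate of -0.94 ± 0.22 from early to late ICM (adjusted p = 0.00345), also below that minimum.

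**Figure D2:**
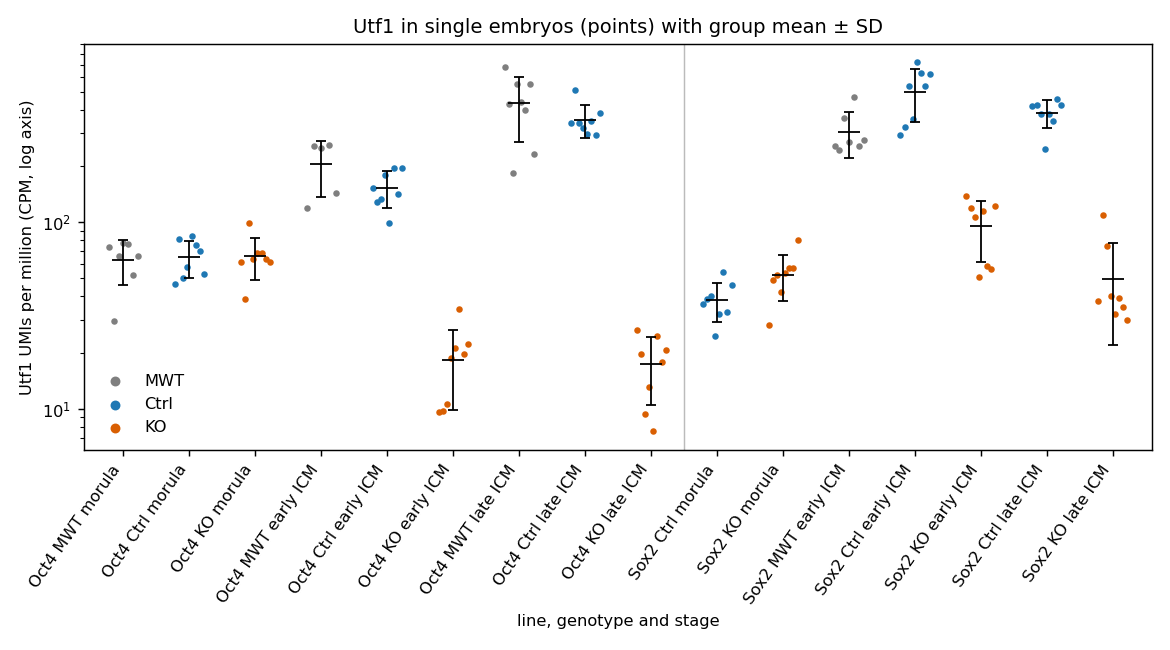
Utf1 in CPM on a log axis for each of the 16 groups, with MWT in grey, Ctrl in blue and KO in orange. Points are single embryos and bars the mean ± SD. KO and Ctrl morulae overlap in both lines, and all KO ICMs sit below all Ctrl ICMs of their line and stage.

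These differences between effects were tested directly, as contrasts between contrasts, called at an adjusted p under 0.05. The Utf1 effect was more negative in early ICMs than in morulae, with a log2 difference of -3.06 ± 0.32 in the Oct4 line (adjusted p = 4.75e-12) and of -2.76 ± 0.30 in the Sox2 line (adjusted p = 7.34e-11). Utf1 was the 1 member of 5 called in either contrast, beside 4.84% of all genes in the Oct4 line and 1.15% in the Sox2 line. From early to late ICM the Oct4-KO effect deepened (difference -1.28 ± 0.35, adjusted p = 0.0170), and Utf1 was again the 1 member called, beside 4.46% of genes. The Sox2-KO effect gave -0.53 ± 0.29 for the same step (adjusted p = 0.514), where 0 of 5 members and 0.0427% of genes were called. Between the lines, the late effect was more negative with loss of Oct4 (difference -1.42 ± 0.32, adjusted p = 0.00152), whereas the early difference, -0.67 ± 0.31, did not pass the test (adjusted p = 0.180, interval -1.28 to -0.06).

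Ctrl and KO late ICMs, unlike the MWT ones, carried numbers with a leading 1 or 2, whose meaning the labels do not give, and Utf1 was compared within each set. In Oct4 late ICMs, set 1 had a mean of 363 CPM in 5 Ctrl and 17.1 in 4 KO embryos, and set 2 had 342 in 3 Ctrl and 17.7 in 4 KO embryos. In Sox2 late ICMs the means were 369 and 65.5 CPM in set 1 and 402 and 34.1 in set 2, with 4 embryos each. The KO embryos were lower in both sets of both lines.

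Most epiblast markers were lower in the KO ICMs in which Utf1 was lower, and the other marker lists were mixed. For comparison, loss of Oct4 gave calls for 10.9% of all genes at the early and 18.1% at the late stage, and loss of Sox2 for 3.27% and 6.95%. Of 10 epiblast markers, Pou5f1 and Sox2 among them, loss of Oct4 lowered 8 in early and 10 in late ICMs, loss of Sox2 lowered 7 and 8, and none was higher. These counts include the deleted gene of each line, whose fall follows from the knockout, and so do the epiblast sums. Their summed level in late ICMs ranged from 2135 to 3757 CPM in Oct4 Ctrl and from 357 to 1086 in Oct4-KO embryos, and from 2489 to 4268 in Sox2 Ctrl and from 1252 to 1899 in Sox2-KO embryos. In early ICMs the sums overlapped, at 1357 to 2416 CPM in Oct4 Ctrl and 1002 to 1632 in Oct4-KO embryos, and at 1345 to 3512 in Sox2 Ctrl and 1008 to 1482 in Sox2-KO embryos. The trophectoderm is the layer that immunosurgery is meant to remove. Of its 11 markers, 7 were higher in Oct4-KO late ICMs, where the sum ranged from 1515 to 3167 CPM against 285 to 1116 in Ctrl embryos, and after loss of Sox2 the late ICMs had 3 higher and 1 lower, where the sum ranged from 660 to 1834 against 267 to 2896. In early ICMs, 3 were higher and 1 lower after loss of Oct4, with sums from 941 to 1522 CPM against 449 to 1391, and 4 were higher and 1 lower after loss of Sox2, with sums from 543 to 2094 against 187 to 664. Of 7 primitive endoderm markers tested, 2 were higher and 4 lower in Oct4-KO late ICMs, where their sum, over the 9 listed, ranged from 886 to 1605 CPM against 283 to 1476 in Ctrl embryos. In early ICMs without Oct4, 1 was higher and 2 lower, with sums from 795 to 1302 CPM against 583 to 922. For Sox2 loss it was 1 higher in early ICMs, with sums from 556 to 899 against 215 to 888, and 1 lower in late ICMs, with sums from 550 to 1240 against 384 to 1858. The part of cell composition in the Utf1 values was not tested.

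Dppa3 fell in Oct4-KO late ICMs and showed no such change after loss of Sox2. In Oct4 Ctrl embryos it ran from 2286 to 2880.0 CPM with a median of 2595 in morulae, from 2109 to 2926 with a median of 2563 in early ICMs, and from 1097 to 2386 with a median of 1697 in late ICMs. In Oct4-KO embryos the values were 1617 to 2116 with a median of 1974 in morulae, 1259 to 1898 with a median of 1492 in early ICMs, and 175 to 1264 with a median of 918 in late ICMs. KO and Ctrl embryos did not overlap in morulae and early ICMs, and in late ICMs 6 of 8 KO embryos were below all Ctrl embryos. The log2 differences were -0.39 ± 0.16 in morulae (adjusted p = 0.273), -0.62 ± 0.16 in early ICMs (adjusted p = 0.00289, below the fold-change minimum) and -1.01 ± 0.17 in late ICMs (2.02-fold lower, adjusted p = 4.82e-07). Full separation was seen for 0.477% of all genes in Oct4 morulae and 3.92% in early ICMs, and in morulae the adjusted test was not passed.

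The late call stood close to the fold-change minimum. Without any 1 of 6 embryos it fell short of that minimum, at -0.99, -0.97 and -0.94 without Ctrl embryos 1-2, 1-3 and 1-6, and at -0.88, -0.96 and -0.97 without KO embryos 1-2, 2-2 and 2-5, while the adjusted p over all 16 such fits stayed between 4.00e-08 and 6.85e-06. With the number set as a block the difference was -0.94 and also short of it. Within sets, the mean was 1953 CPM in Ctrl and 909 in KO embryos in set 1, and 1497 and 751 in set 2.

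In Sox2-line embryos Dppa3 was lower in early ICMs than in morulae, in Ctrl and in KO embryos, and its course was not tested against that of the Oct4 line. Ctrl morulae ranged from 3426 to 4466 CPM with a median of 4039, early ICMs from 1417 to 2010.2 with a median of 1679, and late ICMs from 1113 to 2248 with a median of 1850.2. KO embryos ranged from 3394 to 4575 CPM with a median of 4088 in morulae, from 1237 to 2129 with a median of 1822 in early ICMs, and from 1125 to 2794 with a median of 1615 in late ICMs. The genotypes overlapped widely at each stage, and every early ICM of either genotype was below every morula of the same genotype, at a step where 18.6% of all genes in Ctrl and 20.4% in KO embryos separated fully. The KO effects were 0.02 (interval -0.30 to 0.35), 0.11 (-0.22 to 0.43) and 0.09 (-0.23 to 0.41) in the 3 stages, so that a change by the fold-change minimum was outside each interval. From morula to early ICM, Dppa3 fell by 1.28 ± 0.17 in Ctrl (adjusted p = 1.47e-10) and by 1.20 ± 0.17 in KO embryos (adjusted p = 1.25e-09).

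The Oct4 and Sox2 effects on Dppa3 differed from each other, by -0.73 ± 0.23 in early ICMs (adjusted p = 0.0325) and by -1.10 ± 0.23 in late ICMs (adjusted p = 0.000513). In the early contrast Dppa3 was the 1 member called, beside 8.12% of genes, and in the late contrast Dppa3 and Utf1 were the 2 members called, beside 8.67%. The change of the Dppa3 effect from early to late Oct4-KO ICMs, -0.39 ± 0.23, did not pass the test (adjusted p = 0.383).

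Dppa5a had its highest medians in late ICMs of both lines and was not called in any KO comparison. In Oct4 Ctrl embryos its range was 1020.1 to 1695 CPM with a median of 1180 in morulae, 1548 to 4659 with a median of 2072 in early ICMs, and 2493 to 4983 with a median of 4381 in late ICMs. In Oct4-KO embryos it ranged from 781 to 1463 CPM with a median of 955 in morulae, from 1180 to 2034 with a median of 1870.2 in early ICMs, and from 1852 to 3943 with a median of 2604 in late ICMs. All 8 KO embryos were below the Ctrl median in both ICM stages, although the ranges overlapped. The differences were -0.22 ± 0.17 in morulae (adjusted p = 0.675), -0.40 ± 0.17 in early ICMs (adjusted p = 0.0771) and -0.50 ± 0.17 in late ICMs (1.41-fold lower, adjusted p = 0.0148), the last of which passed the p threshold but not the fold-change minimum. The early estimate was -0.17 (adjusted p = 0.509) without Ctrl embryo 9, which had the highest value of its group.

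In Sox2-line embryos Dppa5a medians were 1617 and 1484 CPM in Ctrl and KO morulae, 1526 and 1527 in early ICMs, and 3678 and 2871 in late ICMs. The KO differences were -0.03, 0.06 and -0.22, with intervals of -0.36 to 0.30, -0.27 to 0.39 and -0.55 to 0.11. All 8 KO late ICMs were below the Ctrl median, within the range of the Ctrl embryos except for 1. Dppa5a had positive estimates from early to late ICM in both lines, and in the Oct4 line also from morula to early ICM, a difference between lines that was not tested. Oct4 Ctrl embryos gave 0.84 ± 0.17 from morula to early ICM (adjusted p = 1.64e-05) and 0.80 ± 0.17 from early to late ICM (adjusted p = 6.97e-05), each below the fold-change minimum, while Sox2 Ctrl embryos gave -0.04 ± 0.17 and then rose by 1.08 ± 0.17 (adjusted p = 1.81e-05). The KO embryos gave 0.67 and 0.70 at these steps in the Oct4 line and 0.05 and 0.81 in the Sox2 line.

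Dppa2 and Dppa4, adjacent and acting as partners, responded little to loss of either factor. Dppa2 medians in Ctrl and KO embryos were 499.9 and 690.3 CPM in Oct4 morulae, 828 and 938 in early ICMs and 455 and 454 in late ICMs. In Oct4-KO morulae 6 of 8 embryos were above every Ctrl embryo, and the difference of 0.49 ± 0.17 did not pass the test (adjusted p = 0.144). The ICM differences were 0.26 ± 0.17 and -0.02 ± 0.17. In Sox2 embryos the medians were 660.4 and 642 CPM in morulae, 609 and 537 in early ICMs and 542 and 571 in late ICMs, with differences of 0.02, -0.14 and 0.19 and no adjusted p under 0.516.

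Dppa4 had lower estimates in the early ICMs of both KO lines, by less than the fold-change minimum and with adjusted p-values that depended on single embryos. In Oct4 early ICMs it ranged from 169.5 to 268 CPM with a median of 213 in Ctrl and from 88.9 to 216 with a median of 147 in KO embryos, a difference of -0.43 ± 0.15 (adjusted p = 0.0312). In Sox2 early ICMs the ranges were 143 to 250.1 with a median of 195 and 89.1 to 168 with a median of 144, a difference of -0.47 ± 0.15 (adjusted p = 0.0419). Leaving out each embryo in turn gave adjusted p-values from 0.0122 to 0.0823 in the Oct4 line and from 0.0266 to 0.129 in the Sox2 line. The KO embryos lay below the Ctrl median in 7 of 8 and 8 of 8 cases. In late ICMs the differences were -0.27 ± 0.16 (adjusted p = 0.206) and 0.10 ± 0.15 (adjusted p = 0.741), and in morulae 0.14 ± 0.15 and -0.11 ± 0.15. The intervals of all 12 KO effects on Dppa2 and Dppa4 excluded a change by the fold-change minimum.

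**Figure D3:**
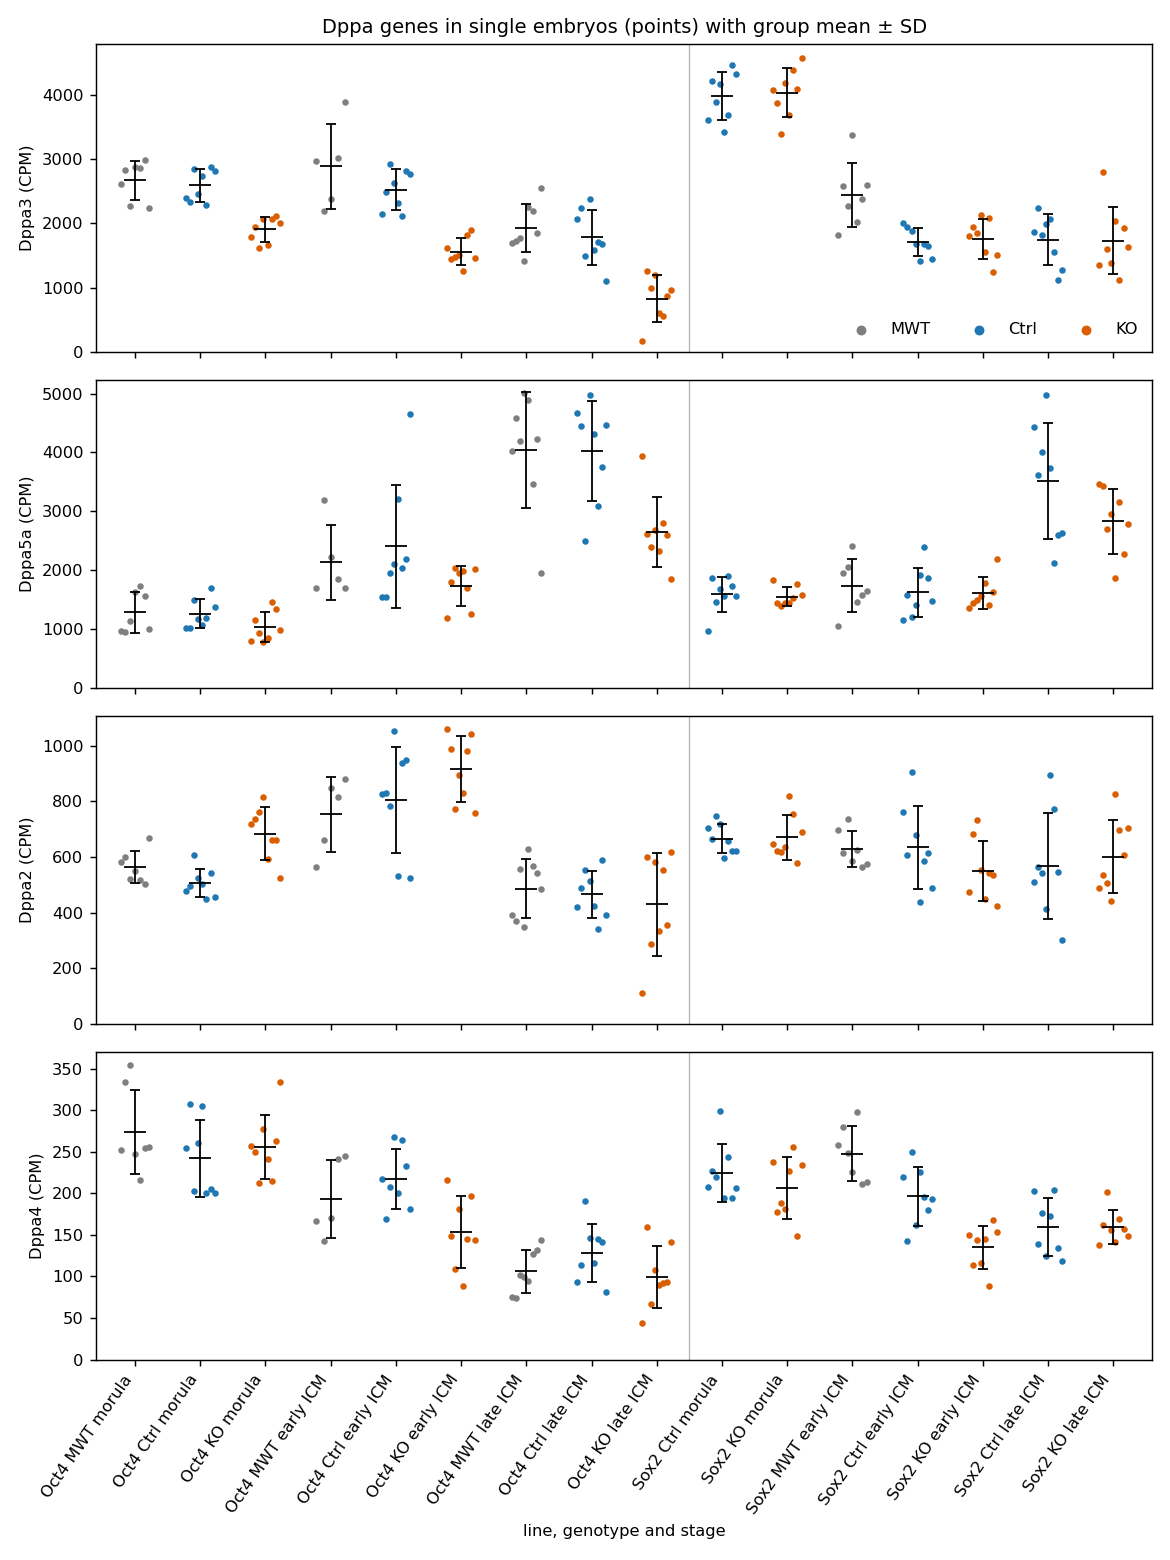
Dppa3, Dppa5a, Dppa2 and Dppa4 in CPM (linear axes from 0) for each of the 16 groups, with MWT in grey, Ctrl in blue and KO in orange. Points are single embryos and bars the mean ± SD, and KO embryos separate from Ctrl embryos for Dppa3 in Oct4 morulae and early ICMs.

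The course of the genes over stages is summarised by how many were called. From morula to early ICM, 1 of 5 members was called in Oct4 Ctrl embryos (Utf1, higher), beside 29% of all genes, and 1 of 5 in Oct4-KO embryos (Utf1, lower), beside 26.3%. In the Sox2 line 2 of 5 were called in Ctrl embryos (Utf1 higher, Dppa3 lower), beside 31.9%, and 1 of 5 in KO embryos (Dppa3, lower), beside 32.5%. From early to late ICM, 1 of 5 was called in Oct4 Ctrl embryos (Utf1, higher), beside 15.6%, 1 of 5 in Oct4-KO embryos (Dppa2, lower), beside 16%, 1 of 5 in Sox2 Ctrl embryos (Dppa5a, higher), beside 2.9%, and 0 of 5 in Sox2-KO embryos, beside 1.07%. The Dppa2 call was -1.01 ± 0.17 (adjusted p = 1.23e-06), with every late ICM below every early ICM, as for 5.94% of all genes, and it fell short of the fold-change minimum at -0.98 with DESeq2 or with its size factors. In the Oct4 Ctrl embryos Dppa2 and Dppa4 also had lower estimates at this step, -0.73 ± 0.17 (adjusted p = 0.000394) and -0.71 ± 0.16 (adjusted p = 0.000160), below the minimum, while the Sox2 Ctrl embryos gave -0.20 and -0.33, with no adjusted p under 0.181.

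One Oct4-KO late ICM, number 1-2, stood apart from its group. It had the lowest values of that group for Dppa3 (175 CPM), Dppa2 (109 CPM) and Dppa4 (43.7 CPM) and the highest for Dppa5a (3943 CPM) and Utf1 (26.5 CPM). Its summed epiblast markers (357 CPM) and primitive endoderm markers (886 CPM) were the lowest of the 8 embryos, and its trophectoderm markers (2885 CPM) ranked 4 of 8. Its Dppa3 value rested on 112 UMIs, and the next embryo had 564 CPM from 389 UMIs. Its total of 640,909 UMIs was the lowest of the group, whose median was 746,557.

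None of the 5 genes was called between Ctrl and MWT embryos. In the Oct4 line the count was 0 of 5 at each stage, beside 0.0646%, 0.373% and 0.797% of 13,923 genes from morula to late ICM, and in the Sox2 line 0 of 5 at the early ICM stage, beside 2.58%. Without the fold-change minimum the Oct4 line still had 0, beside 11, 89 and 220 genes of all tested, and the Sox2 line had 2, beside 881. In the 5 Oct4 MWT early ICMs, Utf1 was 119, 257, 248, 259 and 143 CPM and Dppa3 2972, 2190.3, 2374, 3025 and 3888 CPM, which overlapped the Ctrl embryos. The summed level of 10 oocyte markers was 4.75 to 12.4 CPM in these embryos, beside 3.65 to 12.2 CPM in Oct4 Ctrl early ICMs and 45.7 to 92.7 CPM in MWT morulae, and their epiblast markers summed to 1485 to 3151 CPM against 397 to 921 in MWT morulae. They thus did not overlap the morulae on either list. Whether the inhibitor was used for them, and the stage of the late MWT ICMs, rests on the labels. Sox2 MWT early ICMs had 245 to 471 CPM of Utf1 with a median of 269.7, and 1826 to 3379 CPM of Dppa3 with a median of 2383. Against these, Sox2 Ctrl embryos gave a Utf1 estimate of 0.70 ± 0.21 (adjusted p = 0.0263) and a Dppa3 estimate of -0.53 ± 0.17 (adjusted p = 0.0354), both below the fold-change minimum. In the MWT embryos of the Oct4 line, Utf1 had medians of 65.6, 248 and 436 CPM from morula to late ICM.

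Ordered by group mean, Utf1 was highest in Sox2 Ctrl early ICMs (501 ± 159 CPM, SD, n = 8), followed by Oct4 MWT late ICMs (433 ± 165), Sox2 Ctrl late ICMs (385 ± 65.9) and Oct4 Ctrl late ICMs (355 ± 70.6), with neighbours closer than their spread. The lowest means were those of Oct4-KO early ICMs (18.2 ± 8.33) and late ICMs (17.4 ± 6.88), which did not differ beyond their spread and lay below the next group, Sox2 Ctrl morulae (38.2 ± 9.12), by more than either SD. Dppa3 was highest in Sox2-KO (4037 ± 380) and Ctrl morulae (3979 ± 375), which were alike within their spread and separated from the next group, Oct4 MWT early ICMs (2890 ± 666), and lowest in Oct4-KO late ICMs (829.8 ± 363), which were separated from Oct4-KO early ICMs (1561 ± 209). Between these ends, the means of consecutive groups were closer than their spread at all but 1 step. For Utf1 the other separated neighbours were Sox2 MWT early ICMs (305 ± 82.9) above Oct4 MWT early ICMs (205 ± 68.1), and Oct4 Ctrl early ICMs (153 ± 34.1) above Sox2-KO early ICMs (95.8 ± 34.9). Dppa5a ran from 4040 ± 980 CPM in Oct4 MWT late ICMs to 1035 ± 259 in Oct4-KO morulae, Dppa2 from 916 ± 119 in Oct4-KO early ICMs to 429.6 ± 185 in Oct4-KO late ICMs, and Dppa4 from 274 ± 50.8 in Oct4 MWT morulae to 99.2 ± 37.4 in Oct4-KO late ICMs. For these 3 genes no pair of neighbours in the order differed by more than the larger SD.

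Over the 16 group means of log2(CPM + 1), Dppa4 followed Dppa3 (Pearson r = 0.70) and ran against Dppa5a (r = -0.74), Dppa2 and Dppa4 gave r = 0.53, and Utf1 was nearly unrelated to Dppa4 (r = 0.00) and gave r = 0.60 with Pou5f1 and 0.56 with Sox2. These are descriptions over groups that share lines and stages. Of 7,641 protein-coding genes whose highest group mean reached 20 CPM, those most like Utf1 were Lgr4 (r = 0.94), Uri1 (0.93) and Zfp459 (0.92). For Dppa3 they were Ahctf1 (0.95), Kif22 (0.93) and Pdhb (0.92), for Dppa4 Ddit4l (0.93), Kcnk6 (0.92) and Eri2 (0.92), for Dppa5a Mpzl1 (0.93), Cpd (0.92) and Kmt5c (0.91), and for Dppa2 Ufd1 (0.91), Cct5 (0.89) and Mrpl21 (0.89). No member was among the 3 genes most like another member.

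Utf1 was set beside 7 other genes with known OCT-SOX elements. In Oct4-KO early ICMs 3 of these 7 were lower and in late ICMs 5, with medians of 0.02 and -1.62 beside 0.01 and -0.01 over all genes, and in the Sox2-KO counterparts 3 and 3, with medians of -0.25 and -1.21 beside -0.01 and 0.00. None was higher, and the shares of all genes called were 10.9%, 18.1%, 3.27% and 6.95%. Fgf4, the growth factor of the epiblast, was lower in each of the 4 comparisons, by estimates of -2.10 ± 0.37 and -4.35 ± 0.41 in Oct4-KO and -2.58 ± 0.36 and -3.50 ± 0.36 in Sox2-KO early and late ICMs, and so was Zscan10. Nanog was lower in late ICMs without Oct4 (-1.19 ± 0.24, adjusted p = 2.47e-05) and gave 0.30 in Oct4-KO early ICMs and 0.19 and 0.07 in the Sox2-KO stages. The targeted genes are among the 7, Pou5f1 in the Oct4 line and Sox2 in the Sox2 line. Each count of lower genes and each median therefore includes the deleted gene, whose fall follows from the knockout. The medians of 0.02 and -1.21 are the values of Lefty1 (0.02 ± 1.27 and -1.21 ± 0.82), which had no UMI in Oct4 Ctrl or KO late ICMs.

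Of 11 genes of DNA methylation and its protection, listed because Dppa3 acts in that setting, 4 were lower in Oct4-KO early ICMs, beside 10.9% of all genes called, and 3 in late ICMs, beside 18.1%, with medians of -0.34 and -0.18 and none higher. Uhrf1, which recruits the maintenance methyltransferase and is the partner that Dppa3 restrains, was lower by -3.10 ± 0.33 (adjusted p = 1.66e-12) and -1.64 ± 0.30 (adjusted p = 4.30e-06) there. Tet1, a 5-methylcytosine oxidase, was at -1.78 ± 0.17 and -2.70 ± 0.18 (adjusted p = 4.24e-15 and 6.27e-23), and Zfp57, which guards imprints, at -3.64 ± 0.55 and -5.81 ± 0.56 (adjusted p = 1.72e-07 and 6.32e-15). In Sox2-KO ICMs, 0 of 11 were called in the early stage, and in the late stage Uhrf1 was lower (-1.09 ± 0.27, adjusted p = 0.00201) and Dnmt3a, a de novo methyltransferase, higher (1.43 ± 0.26, adjusted p = 1.47e-05), beside 3.27% and 6.95% of all genes.

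Of the 5 KH-domain relatives of Dppa5a and Dppa1, all tested, Khdc1b was lower and Dppa1 higher in Oct4-KO early ICMs (-2.23 ± 0.51 and 2.07 ± 0.58, adjusted p = 5.04e-04 and 0.00540) and in late ICMs (-2.42 ± 0.61 and 2.99 ± 0.55, adjusted p = 0.00105 and 5.63e-06). Khdc3, a subunit of the maternal subcortical complex, was lower in Oct4-KO late ICMs as well (-1.18 ± 0.16, adjusted p = 2.30e-09). These were 2 of 6 genes early and 3 of 6 late, beside 10.9% and 18.1% of all genes. In Sox2-KO ICMs 0 of 6 were called early and Ooep alone late (-1.46 ± 0.34, adjusted p = 0.00122), beside 3.27% and 6.95%. The median of the 6 was -0.79, 0.39, 0.20 and 0.09 in these 4 comparisons.

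The 2-cell genes that Dppa2 and Dppa4 act on had low counts. How reads matching several genes were treated is not known, and its part in these counts was not tested. Of 16 listed genes 12 were in the table and 4 were detected well enough to be tested, and the summed level of the 12 was at most 48.7 CPM in any embryo. Tcstv1 was the 1 gene called in the 6 KO comparisons, higher in Oct4-KO early ICMs (adjusted p = 0.0478), beside 10.9% of all genes. It had no UMI in any Oct4 Ctrl early ICM, so its fitted fold change is not a measured size. Of 10 oocyte markers, 9 were tested, and 8 were lower in early ICMs than in morulae of either Ctrl line. Their sums ranged up to 126 CPM in Oct4 Ctrl morulae and up to 12.2 CPM in Oct4 Ctrl early ICMs. Dppa3, also a gene of the oocyte, gave -0.14 ± 0.16 over that step in Oct4 Ctrl and fell by 1.28 ± 0.17 in Sox2 Ctrl embryos.

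**Figure D4:**
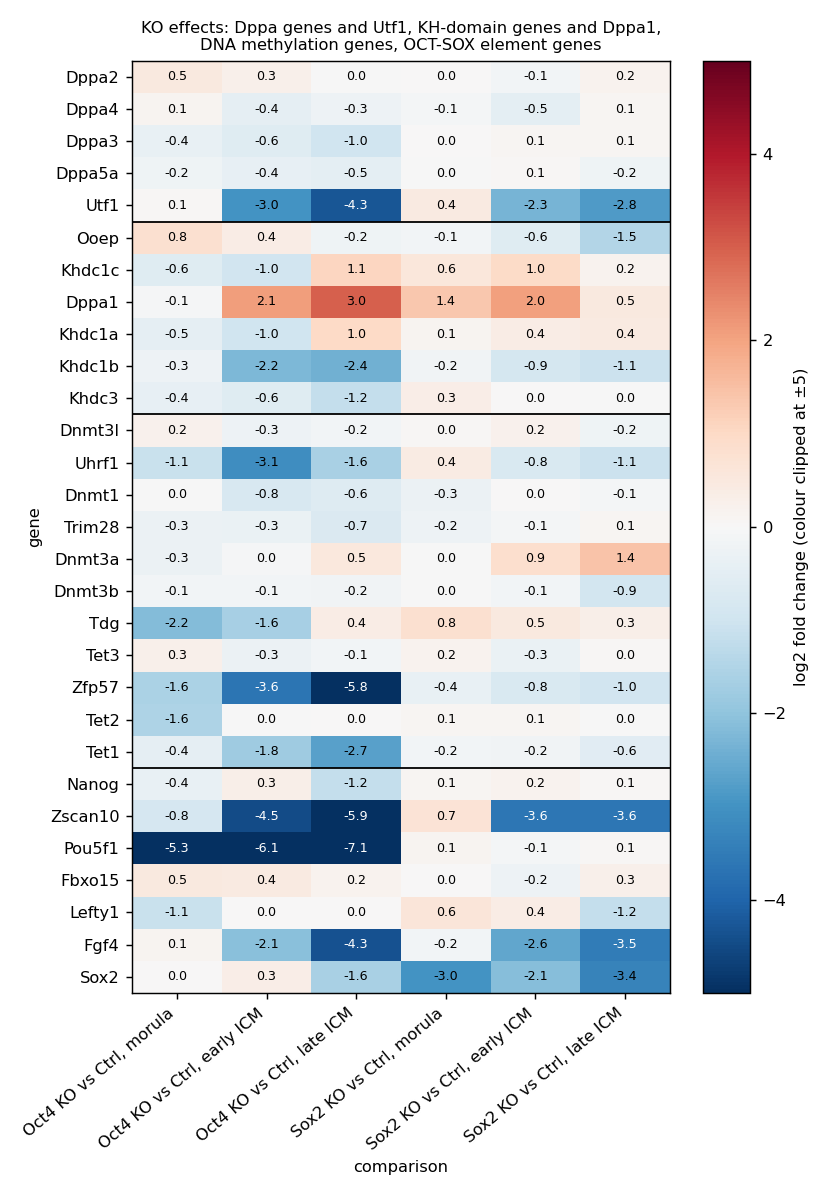
Log2 fold changes of KO over Ctrl (numbers to 1 decimal, and colours that saturate at 5 in either direction) for the Dppa genes and Utf1, the KH-domain relatives with Dppa1, the DNA methylation genes and the OCT-SOX element genes (rows) in the 6 KO comparisons (columns). Utf1 is negative in all 4 ICM comparisons, as are Fgf4, Zscan10, Uhrf1, Zfp57, Tet1 and Khdc1b among others, and the 4 Dppa genes stay between -1.01 and 0.49.

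The genes around the members were examined within 150 kb, of which 24 were tested beside the members themselves. Dppa3 lies 16.3 kb from Gdf3, a TGF-beta family ligand on the opposite strand, which was lower in Oct4-KO morulae, early ICMs and late ICMs (-4.22 ± 0.73, -6.38 ± 0.53 and -6.59 ± 0.46, adjusted p = 9.68e-05, 1.31e-17 and 4.69e-22) and in Sox2-KO early and late ICMs (-1.94 ± 0.30 and -1.85 ± 0.28, adjusted p = 1.05e-06 and 3.25e-07). Slc2a3, a glucose transporter 97.5 kb to the other side, was higher in the 4 ICM comparisons, by 1.79 to 2.12. Nanog, nearer to Dppa3 on that side, gave the values above.

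The Dppa4 and Dppa2 pair lies 137 and 112 kb upstream of Morc1, a germline chromatin ATPase, which was lower after loss of Oct4 at both ICM stages (-4.10 ± 0.54 and -5.27 ± 0.50, adjusted p = 3.16e-09 and 5.59e-15) and in the Sox2-KO counterparts (-2.16 ± 0.50 and -3.28 ± 0.47, adjusted p = 0.00218 and 6.64e-08). Kndc1, 2.3 kb upstream of Utf1 on the same strand, was lower in early ICMs of both KO lines (-3.35 ± 0.54 and -1.32 ± 0.43, adjusted p = 8.03e-07 and 0.0419), and gave -0.57 ± 0.49 and -0.50 ± 0.45 in late ICMs. In all, 2 of the 24 neighbours were higher and 3 lower in Oct4-KO early ICMs and 4 and 6 in late ICMs, beside 10.9% and 18.1% of all genes called. In the Sox2-KO counterparts it was 1 and 3 and then 2 and 4, beside 3.27% and 6.95%. The medians of the 24 lay between -0.13 and 0.04 in these 4 comparisons.

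**Figure D5:**
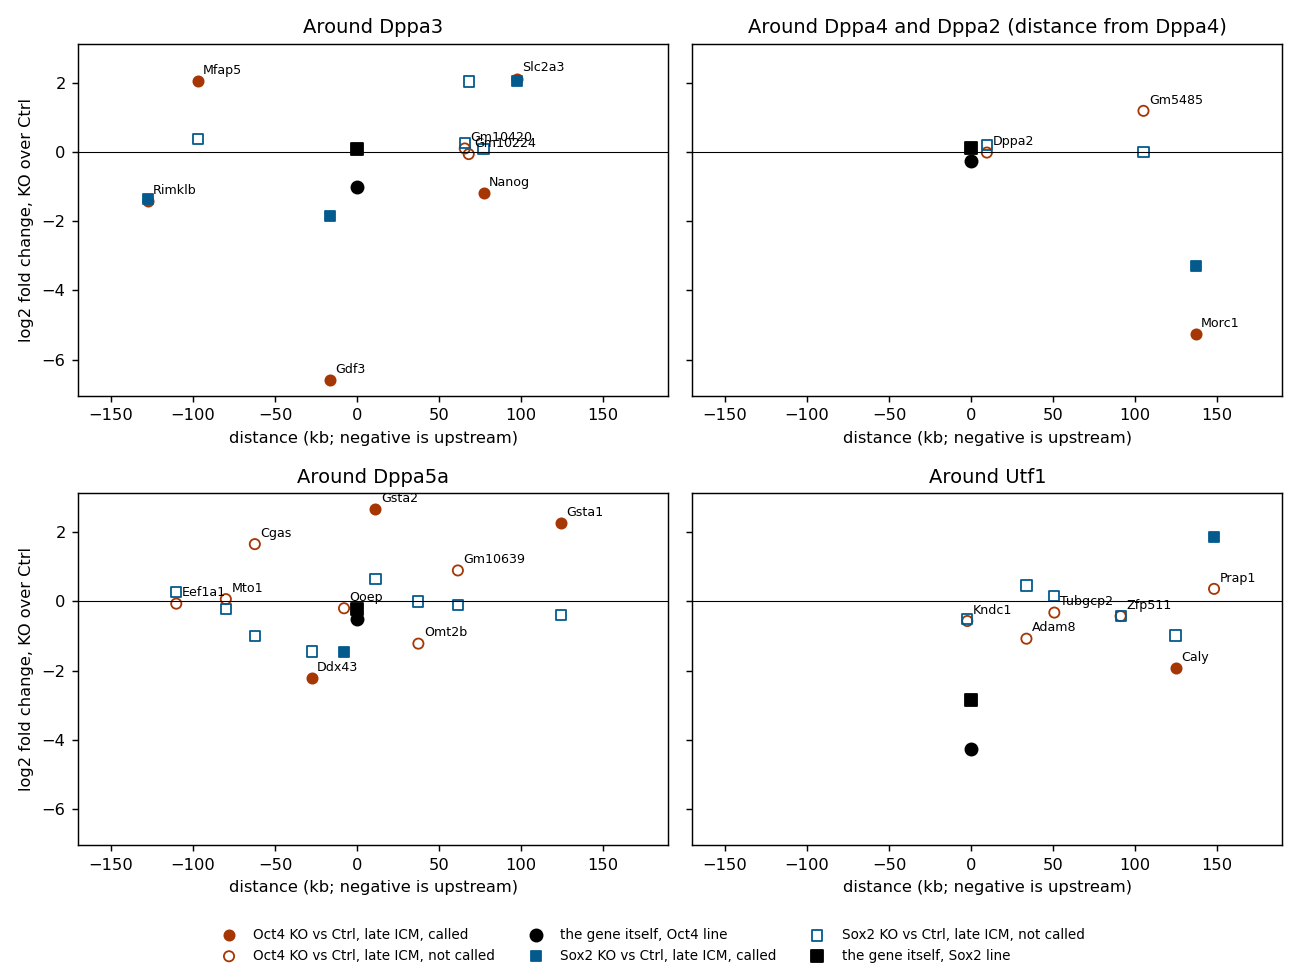
Log2 fold change of KO over Ctrl in late ICMs (y axis) of tested genes against their distance in kb from Dppa3, Dppa4, Dppa5a or Utf1 (x axis, negative upstream). Circles are the Oct4 line, squares the Sox2 line, filled symbols called and black symbols the gene itself. Gdf3 and Morc1 are far below Dppa3 and Dppa4, other neighbours lie on both sides of 0, and Utf1 is below all its neighbours.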

How the data were processed

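The data were single-embryo, 3′-enriched RNA-seq libraries. The authors used UMI-tools to extract UMIs, cutadapt for trimming, TopHat2 for alignment to mm10 with GENCODE vM23, featureCounts to assign reads to genes, and TRUmiCount to correct the number of distinct UMIs. Use of strand and treatment of reads matching several genes are not given in the sources used here. The deposited counts are UMIs per gene without normalization. The deposited log2 values are the authors' rlog values from DESeq2, used here in 1 alternative. CPM was computed from the counts.

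Members and gene lists were chosen with earlier results of these data known. A gene was tested where 0.5 or more of the embryos of some stage had a UMI for it: 14,053 over 96 Ctrl and KO embryos, and 13,923 over all 123 for Ctrl against MWT. Counts were fitted by group with edgeR 4.0.16 (TMM, glmQLFit, glmQLFTest) in R 4.3.3, without covariates, and p-values were adjusted over all tested genes by Benjamini-Hochberg. SE is the absolute log2 fold change over the square root of F. Intervals are at the 95% level. Alternatives used DESeq2 1.42.0, limma 3.58.1 and the settings named in the closing section. Genes named are the members, Pou5f1 and Sox2, up to 4 genes of each list, and the 3 genes most like each member. The fit was tested on simulated data made for Oct4-KO early ICMs with 14,053 genes: 20 of 50 genes raised 2-fold, 18 of 50 lowered 2-fold and 50 of 50 raised 4-fold passed the adjusted p. Every simulated gene had the same set spread, so these shares do not say how often a change in the members would be missed. Replicate numbers name embryos. Where KO and Ctrl groups shared numbers, deviations of same-numbered embryos from their group means correlated between -0.07 and 0.20, and numbers were not treated as pairs. Over 416 pairs of embryos within groups, the lowest chi-square per gene was 2.63, so none looked like 1 library entered again. No source says whether embryos of a group shared a mother, so p-values measure the spread between these embryos.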

Additional observations from a re-analysis of the deposited data

Results flagged for a closer look

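Differences between KO effects passed their own test 6 times in 30 tests of members. Over all genes, 8.12% and 8.67% passed between the lines in early and late ICMs. Between late and early ICMs it was 4.46% in the Oct4 and 0.0427% in the Sox2 line. Between early ICMs and morulae it was 4.84% in the Oct4 and 1.15% in the Sox2 line. The effect of Oct4 loss on Dppa3 was more negative than that of Sox2 loss, by -0.73 in early and -1.10 in late ICMs on the log2 scale, and so was that on Utf1, by -1.42 in late ICMs. The Utf1 effect was larger in early ICMs than in morulae by -3.06 in the Oct4 line and -2.76 in the Sox2 line, and larger in late than in early ICMs of the Oct4 line by -1.28.

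In 4 sets of values, each 1 gene in 1 group, a single embryo lay far from the others, and 2 of these sets were Sox2 Ctrl morulae. Dppa4 was 299.8 CPM in Sox2 Ctrl morula 12, where the next embryo had 244. Dppa5a was 3943 CPM in Oct4-KO late ICM 1-2, next to 2806, and 969 CPM in Sox2 Ctrl morula 1, next to 1460.4. Utf1 was 514 CPM in Oct4 Ctrl late ICM 1-3, next to 384. Chance flags about 1 in 20 such sets, and 80 were examined.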

How the results depend on the processing

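Utf1 was called lower in the 4 ICM comparisons of KO and Ctrl embryos under every alternative run: DESeq2, its size factors, totals alone, no detection filter, thinned counts, rlog values with limma, all embryos or only the 2 groups in the fit, the blocks, no fold-change minimum and leaving out each embryo. No called value changed direction, and the 6 differences between effects named above passed under each of the 6 alternatives run for them. Without a fold-change minimum, the members called became 3 of 5 in Oct4-KO early ICMs (beside 2950 of 14,053 genes), 3 in Oct4-KO late ICMs (4450 genes) and 2 in Sox2-KO early ICMs (989 genes). They became 3 and 5 in the Oct4 Ctrl steps to early and to late ICM (6748 and 4560 genes), 3 and 4 in the Oct4-KO steps (6338 and 4564), 3 and 2 in the Sox2-KO steps (7299 and 632), and 2 in Sox2 Ctrl against MWT early ICMs (881 of 13,923). With the late number set as a block, Dppa3 lost its call in Oct4-KO late ICMs and Utf1 kept its own. Leaving out each embryo there removed the Dppa3 call in 6 of 16 fits and that of Utf1 in none. In the Oct4-KO step from early to late ICM, Dppa2 lost its call with DESeq2 and with its size factors. The causes of these shifts were not tested, other than that the minimum itself is removed.

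A replicate block was fitted only to the embryos whose numbers KO and Ctrl groups shared. These were 3 numbers in Oct4 morulae, 2 in Oct4 early ICMs and 4 each in Sox2 early and late ICMs. Utf1 was the member called in the ICM fits, at -3.84 in Oct4 early ICMs, and no member was called in the morulae. The shares of all genes called in these smaller fits are not given here. As the numbers name embryos, these fits do not show a pairing. No paired analysis was possible for Oct4 late ICMs and Sox2 morulae because they shared 1 and 0 numbers.

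Counting error is largest for Utf1 in Oct4-KO ICMs, which had 6 to 28 UMIs each. In the simulation of Oct4-KO early ICMs, 20 of 50 genes raised 2-fold and 18 of 50 lowered 2-fold passed. That simulation set the same spread for all genes. How often a change of that size in the members would pass was not tested.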

Other observations

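Pou5f1 had unlike levels in the lines also among embryos that were not KO. In morulae its medians were 23.1 CPM in Oct4 Ctrl and 24.3 in Oct4 MWT embryos against 80.6 in Sox2 Ctrl embryos, while in early ICMs they were 84.6, 78.9 and 53.7, and 115 in Sox2 MWT embryos. Dppa3 in Ctrl morulae had means of 2593 ± 251 CPM in the Oct4 line and 3979 ± 375 in the Sox2 line. Line and any difference in collection or sequencing cannot be told apart, and no test between lines was made for these levels.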
